A study of Homo sapiens with 6 samples.

Results

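Expression of 46 genes of homologous recombination and Fanconi anaemia repair was followed in A2780 cells after knockdown of USP39. The genes were listed by name, as repair genes that matter for the response of ovarian cancer to platinum and to PARP inhibitors. The list was drawn up with earlier results of these data known, and the part of that choice in the counts below was not tested. Of the 46, 42 had a row under the listed symbol in a table of 16571 genes, and MRE11A was found as MRE11, which made 43. BARD1, FANCB and RNF8 had no row and were not analysed here. The 43 genes had 63 of the 21368 RefSeq messenger RNA transcripts in the table, and counts were summed per gene.

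A2780 is an established human ovarian cancer cell line, which the labels call serous. The control group, pGIPZ-NC, received a lentiviral vector for short hairpins in its control form, and the other group, shUSP39, received one with a hairpin that targets USP39, which belongs to the spliceosome. Per the study's methods, its hairpins were placed in the pGIPZ vector and its lines were selected with puromycin after infection, so the controls share the virus and the drug. There were 3 RNA-seq libraries in each group. The study describes them as independent biological samples, but the labels do not say whether they came from separate cultures or which hairpin each shUSP39 library carried, and p-values measure the spread between these libraries.

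The libraries held between 28294819 and 32939264 counts each. Between 12662 and 12819 genes had a count in the 3 control libraries and in shUSP39 replicate 1, against 15446 in shUSP39 replicate 2 and 14890 in replicate 3, so results are also given for shUSP39 replicate 1 alone where they change. That fit takes its spread from the 3 controls only and assumes that the lone knockdown library varies like them. USP39 itself was not analysed here, which leaves the group labels without a check on the targeted gene. Of the 13 markers of serous carcinoma looked for, WT1 had no row. PAX8, MUC16, MSLN, EPCAM, CDH1, ESR1, MECOM and SOX17 had means of at most 0.0962 CPM (counts scaled to library size) in the controls. In shUSP39, MUC16 had 0.187, 4.90 and 2.40 CPM in order of replicate number, from 6, 150 and 71 counts. These values lay above all controls, and MUC16 was not tested. The others of these genes had means of at most 0.132 CPM in shUSP39. Of the keratins on the list, KRT19 fell from a mean of 24.4 to 1.96 CPM and KRT8 from 0.979 to 0.0312, KRT18 rose from 22.4 to 32.9, and KRT7 had 0.256 and 0.345 CPM. The summed level of that list was 47.3 to 49.7 CPM in the controls and 34.7 to 41.3 in shUSP39. Markers of leukocytes summed to 0.251 to 0.531 and 0.250 to 0.817 CPM, and markers of endothelium to 0.390 to 0.439 and 0.49997 to 2.03 CPM. Fibroblast markers, which were mostly the collagens COL1A2 and COL3A1, summed to 2557 to 2672 CPM in the controls and 1237 to 1303 in shUSP39. Of 12 tested interferon-stimulated genes, 11 were higher in shUSP39 and none was lower, beside 16.1% and 17.5% of all tested genes. The largest rises were in OAS2, IFI44 and IFIT1, which had 0 to 16 counts in the control libraries and 78 to 352 in shUSP39. Such genes passed the filter on low counts only through shUSP39, so they could only be called higher. At a mean of at least 10 CPM, a limit added after the data were seen, 6 of 6 were higher, beside 20.1% of all tested genes of that level. The part of these shifts in the results on repair genes was not tested.

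Homologous recombination mends a broken chromosome by copying the sister chromatid. Broken ends are first trimmed to single strands (resection), BRCA1, PALB2 and BRCA2 then prepare the strand, and it invades the matching sequence. The Fanconi pathway detects crosslinks between strands, such as those made by platinum drugs: a core complex attaches ubiquitin to the FANCD2-FANCI pair, nucleases cut the crosslink free, and recombination repairs the break. The kinases ATM and ATR signal the damage to the cell cycle. Loss of the recombination branch is known to make ovarian cancer cells sensitive to platinum and to PARP inhibitors.

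The repair genes were mostly slightly lower in shUSP39. Of the 43 genes, 38 passed the filter on low counts, which 10695 genes of the table passed, and 30 of the 38 had a negative log2 fold change (shUSP39 over pGIPZ-NC). By edgeR's quasi-likelihood test at a Benjamini-Hochberg adjusted p under 0.05, 19 of them were lower, 1 was higher and 18 did not pass. Over all tested genes 17.5% were lower and 16.1% were higher. Under upper-quartile scaling 16 of the 38 were lower, beside 1501 of all 10695 tested genes, and under library size only 16, beside 1650. Counts under other settings, shUSP39 replicate 1 alone among them, are given further below. The median log2 fold change was -0.25 over the 38 repair genes and 0.0085 over all tested genes, and no repair gene passed beyond 2-fold, where 6.81% of all tested genes did. At an unadjusted p under 0.05 the count beyond 2-fold was also 0.

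The 38 genes were measured at higher levels than most, with a median of 26.5 CPM against 11.03 over all tested genes, and small changes are called more often at such levels. The counts were therefore also read among genes with a mean of at least 10 CPM, a limit added after the data were seen. There, 17 of 22 repair genes were lower and 1 was higher, against 27.5% lower and 20.1% higher among the 5503 tested genes of that level. The median log2 fold change of the 22 genes was -0.25. Against a fold limit of 1.1 in place of 0, also added afterwards, 12 of the 38 were lower and 1 was higher. At that limit 1146 of all 10695 tested genes were lower, and their count of higher genes is not given here.

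The shift was seen in each knockdown library. Relative to the mean of the controls, the median log2 ratio over the 38 genes came to 0.03, -0.04 and -0.01 for the pGIPZ-NC libraries in order of replicate number and to -0.19, -0.20 and -0.30 for the shUSP39 libraries. In these shUSP39 libraries 27, 30 and 32 of the 38 genes lay below the control mean. All 3 shUSP39 libraries lay below all 3 controls in 22 of the 38 genes, where 22.5% of all tested genes did so, and above them in 1 gene, where 21.7% did so. The 43 genes together took 0.277 to 0.288% of the counts in the controls and 0.244 to 0.253% in shUSP39. Fewer cells of a kind and less RNA per cell cannot be told apart in such bulk samples.

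**Figure D1:**
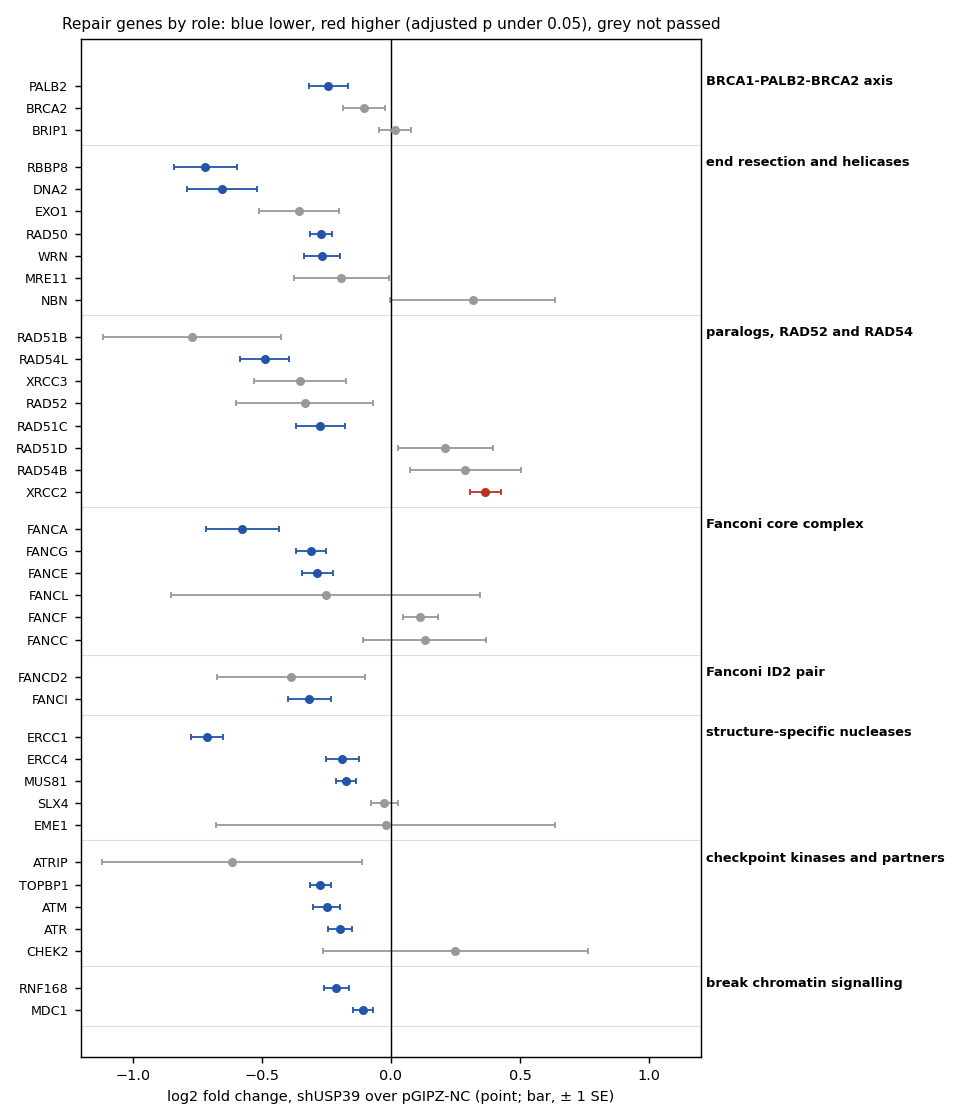
Log2 fold change (x axis, shUSP39 over pGIPZ-NC) of the 38 tested repair genes, grouped by role; points are fitted values, bars are 1 standard error, blue and red mark genes lower or higher at an adjusted p under 0.05, and grey marks the others. The blue points lie between -0.72 (RBBP8) and -0.11 (MDC1), and XRCC2 at 0.37 is the only red point.

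Promoters are shown for 4 genes, chosen after their values were seen: RBBP8, which had the largest called fall, XRCC2, the gene that rose, and FANCA and TOPBP1, the lower genes with letters of an E2F site. E2F factors drive many genes of S phase and of repair. Each runs from 250 bases before to 50 bases after the RefSeq start site on GRCh38.p14, 5′ to 3′ on the gene's strand, and capitals mark matches to E2F letters (TTTCCCGC, TTTCGCGC, TTTGCCGC or TTTGGCGC, either strand) or to CCAAT, the box bound by NF-Y. The windows are chr18:22933078-22933377 (plus strand) for RBBP8, chr16:89816598-89816897 (minus) for FANCA, chr3:133661892-133662191 (minus) for TOPBP1 and chr7:152676092-152676391 (minus) for XRCC2.
RBBP8: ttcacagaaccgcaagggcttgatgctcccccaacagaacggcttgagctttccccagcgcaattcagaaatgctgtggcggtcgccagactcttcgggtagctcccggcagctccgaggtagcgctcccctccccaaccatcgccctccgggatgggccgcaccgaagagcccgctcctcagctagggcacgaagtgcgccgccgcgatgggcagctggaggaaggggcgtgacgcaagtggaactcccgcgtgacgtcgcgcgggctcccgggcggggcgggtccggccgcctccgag
FANCA: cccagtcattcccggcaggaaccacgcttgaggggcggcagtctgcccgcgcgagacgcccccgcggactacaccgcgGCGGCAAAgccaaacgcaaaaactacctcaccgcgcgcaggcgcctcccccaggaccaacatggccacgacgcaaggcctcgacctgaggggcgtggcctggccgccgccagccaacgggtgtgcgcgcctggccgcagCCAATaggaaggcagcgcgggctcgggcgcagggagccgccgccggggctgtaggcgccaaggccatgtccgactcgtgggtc
TOPBP1: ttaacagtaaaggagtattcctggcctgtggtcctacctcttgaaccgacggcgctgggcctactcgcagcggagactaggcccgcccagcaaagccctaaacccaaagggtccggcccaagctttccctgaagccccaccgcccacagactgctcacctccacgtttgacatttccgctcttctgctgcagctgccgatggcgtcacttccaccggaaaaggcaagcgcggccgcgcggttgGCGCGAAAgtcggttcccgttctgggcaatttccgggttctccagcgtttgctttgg
XRCC2: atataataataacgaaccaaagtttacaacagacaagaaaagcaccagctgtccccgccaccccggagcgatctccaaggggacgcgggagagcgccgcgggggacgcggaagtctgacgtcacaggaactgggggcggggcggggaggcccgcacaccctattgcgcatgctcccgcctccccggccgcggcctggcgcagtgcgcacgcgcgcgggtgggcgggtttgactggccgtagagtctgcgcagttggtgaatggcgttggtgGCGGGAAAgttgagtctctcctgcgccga

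With the start site counted as 0, the E2F letters began at -172 in FANCA, at -7 in TOPBP1 and at 21 in XRCC2, and the CCAAT letters of FANCA began at -33. No 2 of these matches overlapped, and the RBBP8 window held none of the motifs searched. A promoter was found for 38 of the 43 genes, with no entry for NBN, DNA2, WRN, RAD54B and FANCI. E2F letters were present in 6 of the 38 (EXO1, XRCC2, FANCA, FANCC, FANCD2 and TOPBP1), against 3.33% of 27305 promoters of the table and 5.13% of the 8318 promoters of tested genes. They were in 2 of 16 promoters of lower genes and in 4 of the other 22. Those others include BRCA1, BLM, FANCM, CHEK1 and TP53BP1, which were not tested for a change. The lower genes DNA2, WRN and FANCI are not among the 16. A part of these letters in the changes was not tested. The CCAAT letters were in 16 of 38, against 36.6% of promoters of tested genes, the CHR letters TTTGAA, an element of mitotic gene promoters, in 4 of 38 against 9.31%, and the E-box CACGTG, which MYC binds, in 3 of 38 against 10.2%. These matches are descriptions of letters, not of bound sites.

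Of the 3 tested genes of the BRCA1, PALB2 and BRCA2 axis, only PALB2 passed. PALB2 (chromosome 16, 23614481 to 23652642, GRCh37), which bridges BRCA1 and BRCA2, had 52.0, 56.9 and 45.1 CPM in the controls and 42.9, 44.5 and 43.0 CPM in shUSP39. The groups did not overlap, but the lowest control lay close to the highest knockdown library. Its log2 fold change was -0.24 (SE 0.08, edgeR adjusted p 0.0145). The adjusted p was 0.140 without pGIPZ-NC replicate 2 and 0.0963 with shUSP39 replicate 1 alone, in a range of 0.00157 to 0.140 over all alternatives.

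BRCA2, which acts on the resected strand (chromosome 13, 32889223 to 32974405), had 111.6, 93.4 and 83.5 CPM in the controls and 90.1, 94.1 and 84.2 CPM in shUSP39. The 3 knockdown values lay within the range of the controls, and pGIPZ-NC replicate 1 stood above the other 5 libraries. The log2 fold change was -0.10 (SE 0.08, edgeR adjusted p 0.359). It was 0.01 without that library and -0.20 without pGIPZ-NC replicate 3, where the adjusted p was 0.0398, in a range of 0.0398 to 0.901 over all alternatives. BRIP1, a helicase that binds BRCA1, had a log2 fold change of 0.02 (SE 0.06), with 128 ± 9.97 CPM in the controls and 129.8 ± 12.1 CPM in shUSP39 (SD, n = 3 each).

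BRCA1, the ubiquitin ligase at the head of this axis (chromosome 17, 41196312 to 41322262), had 11, 0 and 3 counts in the controls and 0, 0 and 1 counts in shUSP39. It did not pass the filter, and a difference was not detectable at this depth. The table lists 1 BRCA1 transcript, NM_007300.3, where a separate RefSeq table, used here as a reference, holds 368 messenger RNAs of the gene. PALB2 also had 1 transcript in the table, against 19 in that reference, with a mean of 51.3 CPM in the controls. With so few counts, the level of BRCA1 in these cells cannot be read from them, a limit taken up below with the other genes of few counts.

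Resection held the largest called fall. RBBP8 (CtIP, chromosome 18, 20378224 to 20606451), the cofactor that starts trimming together with the MRE11 complex, had 14.9, 13.5 and 15.2 CPM in the controls and 7.97, 9.28 and 9.23 CPM in shUSP39. Every knockdown library lay well below every control. The level fell by 39.2%, with a log2 fold change of -0.72 (SE 0.12, edgeR adjusted p 3.45e-05). Its 2 transcripts were both lower, NM_002894.2 with a log2 fold change of -0.64 (adjusted p 0.00103) and NM_203292.1 of -1.01 (adjusted p 0.00674).

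DNA2 (chromosome 10, 70173821 to 70231878), a nuclease and helicase of long-range resection, had 12.2, 10.7 and 11.4 CPM in the controls and 8.06, 7.19 and 6.56 CPM in shUSP39. The groups were again apart. Its log2 fold change was -0.65 (SE 0.14, edgeR adjusted p 0.000375), and with shUSP39 replicate 1 alone it was -0.50, with an adjusted p of 0.0556 in a range of 4.86e-05 to 0.0556 over all alternatives. WRN, the helicase that works with DNA2, was lower by a log2 fold change of -0.27 (SE 0.07, edgeR adjusted p 0.0039). With shUSP39 replicate 1 alone WRN had -0.14 (adjusted p 0.36 with the spread of the controls only, in a range of 0.000317 to 0.36).

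The 3 subunits of the complex that senses broken ends did not share a call. RAD50, the long coiled ATPase, fell from 330.4 ± 23.9 to 274 ± 6.87 CPM (SD, n = 3 each), a log2 fold change of -0.27 (SE 0.04, edgeR adjusted p 1.75e-05). MRE11, the nuclease, had -0.19 (SE 0.18) and NBN, the subunit that recruits ATM, had 0.32 (SE 0.32), and neither passed. Both were measured at low counts, with 5.84 ± 0.622 CPM for MRE11 and 1.58 ± 0.0627 CPM for NBN in the controls (SD, n = 3), so changes of the size of RAD50's were not detectable in them. EXO1, the other long-range nuclease, had -0.36 (SE 0.16, edgeR adjusted p 0.0826) with all knockdown libraries below all controls. BLM, a helicase of resection and of crossover control, had 3 to 9 counts in the controls and 6 to 23 in shUSP39 and was not tested.

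The paralogs RAD51B, RAD51C, RAD51D, XRCC2 and XRCC3, which form complexes that assist recombination, went in both directions. XRCC2 (chromosome 7, 152341861 to 152373278), a subunit of the paralog complex with RAD51B, RAD51C and RAD51D, was the one gene of the 38 that rose. It had 74.0, 65.2 and 75.2 CPM in the controls and 92.6, 92.9 and 90.6 CPM in shUSP39. All knockdown values stood above all control values and lay closer together than these. The log2 fold change was 0.37 (SE 0.06, edgeR adjusted p 1.89e-05), a rise of 28.9%, and between 0.30 and 0.41 over all alternatives.

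None of the partners of XRCC2 was called higher. RAD51C fell from 21.8 ± 1.97 to 18.02 ± 0.531 CPM (SD, n = 3 each), a log2 fold change of -0.27 (SE 0.10, edgeR adjusted p 0.0296). This call was lost under upper-quartile scaling, under library size alone, without any 1 of pGIPZ-NC replicates 1 and 3 and shUSP39 replicates 2 and 3, and with shUSP39 replicate 1 alone, where the adjusted p was 0.305 (range 0.0135 to 0.305). RAD51B had -0.77 (SE 0.35, edgeR adjusted p 0.0909) at 50 to 64 counts in the controls and 20 to 45 in shUSP39, with all knockdown libraries below all controls. RAD51B passed without shUSP39 replicate 2, at a log2 fold change of -1.06 (adjusted p 0.0449), and with shUSP39 replicate 1 alone, at -1.55 (adjusted p 0.0315, with the spread of the controls only), in a range of 0.0285 to 0.319. RAD51D had 0.21 (SE 0.18) and XRCC3, the partner of RAD51C in the other paralog complex, had -0.35 (SE 0.18), and neither passed.

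RAD54L (chromosome 1, 46712133 to 46744152), a motor of strand invasion, had 22.6, 24.6 and 23.1 CPM in the controls and 16.6, 17.4 and 15.96 CPM in shUSP39. The groups stood clearly apart, with a log2 fold change of -0.49 (SE 0.09, edgeR adjusted p 0.000142). Its relative RAD54B had 0.29 (SE 0.21) and RAD52, which anneals single strands, had -0.33 (SE 0.27), and neither passed. The difference between RAD54L and RAD54B was not tested.

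In the Fanconi core complex, which attaches ubiquitin to FANCD2 and FANCI, 3 of 6 tested subunits were called lower and none higher, beside 17.5% lower over all tested genes. At a mean of at least 10 CPM it was 2 of 3, beside 27.5%. FANCA (chromosome 16, 89793091 to 89883385), which forms a module with FANCG, had 9.22, 10.5 and 11.3 CPM in the controls and 6.25, 7.19 and 7.37 CPM in shUSP39. The highest knockdown library lay below the lowest control. Its log2 fold change was -0.58 (SE 0.14, edgeR adjusted p 0.00204). FANCG (chromosome 9, 35073832 to 35080001) had 116, 111 and 120.5 CPM in the controls and 97.6, 97.7 and 85.2 CPM in shUSP39. This too left a gap between the groups, with a log2 fold change of -0.31 (SE 0.06, edgeR adjusted p 9.3e-05).

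FANCE, which links the core complex to FANCD2, fell from 77.9 ± 3.33 to 63.97 ± 3.08 CPM (SD, n = 3 each), a log2 fold change of -0.28 (SE 0.06, edgeR adjusted p 0.000457). FANCC, its partner, had 0.13 (SE 0.24) and FANCF, the adaptor between the modules, had 0.11 (SE 0.07), and neither passed. FANCF is a gene of 1 exon, the only one among the 38. FANCL, the subunit that carries the ubiquitin ligase activity, had -0.25 (SE 0.60) at 6 to 20 counts in any library. FANCM, the translocase that anchors the complex to DNA, had at most 4 counts in a library and was not tested.

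The FANCD2-FANCI pair, the target of the core complex, had 1 call. FANCI (chromosome 15, 89787176 to 89860492) had 39.4, 35.3 and 34.7 CPM in the controls and 27.6, 32.0 and 28.3 CPM in shUSP39, so the groups did not overlap. This gave a log2 fold change of -0.32 (SE 0.08, edgeR adjusted p 0.00349). FANCD2 (chromosome 3, 10068054 to 10143616) had 2.67, 2.52 and 2.13 CPM in the controls and 2.66, 1.40 and 1.52 CPM in shUSP39. Here shUSP39 replicate 1 stood among the controls and the other two lay below them. The log2 fold change was -0.39 (SE 0.29, edgeR adjusted p 0.328) and 0.12 with shUSP39 replicate 1 alone, at 43 to 85 counts per library.

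ERCC1 had the lowest edgeR adjusted p of the 38 genes, at 5.75e-10. ERCC1 (chromosome 19, 45910592 to 45982086) is the partner of the nuclease ERCC4 (XPF), and the pair cuts DNA beside a crosslink and in nucleotide excision repair. It had 102, 94.8 and 96.6 CPM in the controls and 62.7, 62.0 and 54.1 CPM in shUSP39. The gap between the groups was far wider than the spread within either. The level fell by 39.0%, or -0.71 on the log2 scale (SE 0.06), in a range of -0.75 to -0.64 over all alternatives.

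ERCC4 itself had -0.19 (SE 0.06, edgeR adjusted p 0.0255), from 56.3 ± 0.647 to 49.4 ± 2.46 CPM (SD, n = 3 each), and the call was lost under 5 alternatives, with an adjusted p of 0.285 for shUSP39 replicate 1 alone (range 0.0116 to 0.285). MUS81, the nuclease that cleaves recombination intermediates, fell from 332 ± 16.01 to 294 ± 8.88 CPM (SD, n = 3 each), a log2 fold change of -0.17 (SE 0.04, edgeR adjusted p 0.00105). Its partner EME1 had -0.02 (SE 0.66) at 3 to 18 counts per library. SLX4, the scaffold that holds these nucleases, had -0.03 (SE 0.05), with 108 ± 3.37 CPM in the controls and 106 ± 5.59 CPM in shUSP39 (SD, n = 3 each), at an SE close to those of the called genes RAD50 and ATM.

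Among the checkpoint genes the apical kinases were lower by small amounts. ATM (chromosome 11, 108093771 to 108239829), which answers double-strand breaks, had 233.5, 216 and 203 CPM in the controls and 190.2, 189.7 and 169 CPM in shUSP39. The knockdown libraries all lay below the controls, at a log2 fold change of -0.25 (SE 0.05, edgeR adjusted p 0.000394). ATR (chromosome 3, 142167849 to 142297575), which answers stalled forks, had 153, 147 and 145 CPM in the controls and 129.8, 129 and 129.0 CPM in shUSP39, which were nearly equal to each other. Its log2 fold change was -0.20 (SE 0.05, edgeR adjusted p 0.0011).

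TOPBP1, which switches ATR on, fell from 336 ± 15.1 to 278 ± 14.1 CPM (SD, n = 3 each), a log2 fold change of -0.27 (SE 0.04, edgeR adjusted p 8.22e-06). ATRIP, which carries ATR to single strands, had -0.62 (SE 0.50) at 11 to 38 counts per library and did not pass. CHEK2, the kinase below ATM, had 0.408, 0.523 and 0.708 CPM in the controls and 0.844, 0.653 and 0.439 CPM in shUSP39, which overlapped (log2 fold change 0.25, SE 0.51, edgeR adjusted p 0.761). CHEK1, the kinase below ATR, had 7, 6 and 4 counts in the controls and 6, 9 and 3 in shUSP39 and was not tested. For both of these kinases a difference was not detectable at this depth.

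Of the genes that mark chromatin beside a break, RNF168, which attaches ubiquitin to histone H2A, fell from 126 ± 4.76 to 109 ± 2.61 CPM (SD, n = 3 each), a log2 fold change of -0.21 (SE 0.05, edgeR adjusted p 0.00127). With shUSP39 replicate 1 alone its adjusted p was 0.0917, in a range of 0.000106 to 0.0917. MDC1, the scaffold on phosphorylated H2AX, had the smallest called change, -0.11 (SE 0.04, edgeR adjusted p 0.0378). MDC1 passed in none of the fits that left out 1 library except that without pGIPZ-NC replicate 1, and its adjusted p ran from 0.00695 to 0.242 over all alternatives. TP53BP1, which holds back resection, had 3 to 15 counts in the controls and 1 to 8 in shUSP39 and was not tested.

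**Figure D2:**
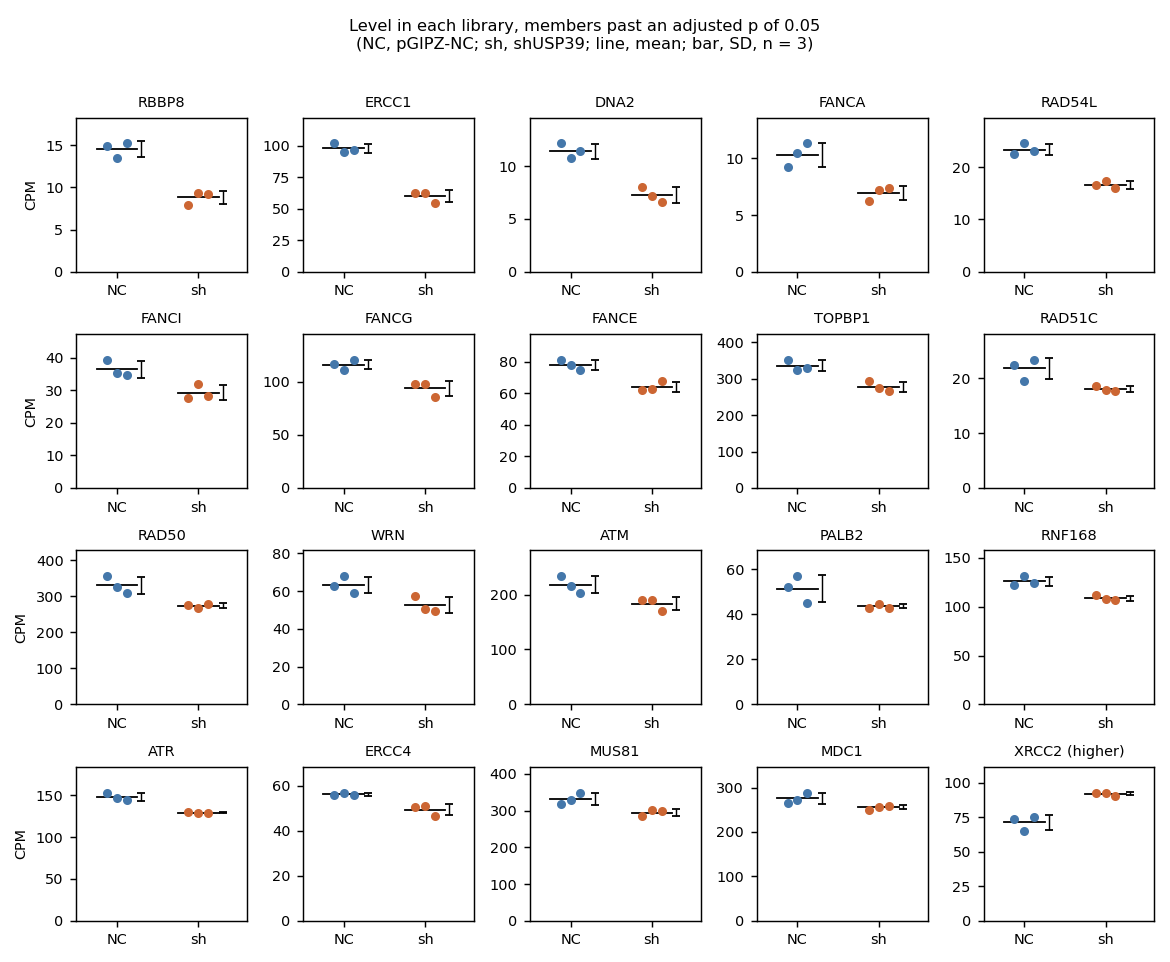
Level in CPM (y axis, from 0) of the 20 genes past an adjusted p of 0.05 in each library of pGIPZ-NC (NC, blue) and shUSP39 (sh, orange); lines are means and bars are SD (n = 3). In 19 panels the orange points lie below the blue ones, with the widest gaps in RBBP8, ERCC1 and DNA2, and in XRCC2 they lie above.

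Several of these genes share their locus with another gene on the opposite strand, and use of strand in the counting is not stated, so reads from the partners cannot be told apart. The pairs are ERCC1 with FOSB, RAD54L with LRRC41, FANCI with POLG, FANCD2 with FANCD2OS, MUS81 with CFL1 and EFEMP2, ATM with C11orf65, XRCC3 with KLC1, TP53BP1 with TUBGCP4, EME1 with LRRC59, CHEK1 with ACRV1, NBN with OSGIN2 and DECR1, RAD50 with IL5, BRCA2 with ZAR1L, FANCF with GAS2, FANCL with VRK2, CHEK2 with HSCB and MDC1 with TUBB. ATRIP overlaps TREX1 and CHEK1 overlaps STT3A on the same strand. All these overlaps are of whole gene spans, introns included, and their sizes differ widely. They ran from 13 bases for MDC1 with TUBB, 278 for BRCA2 with ZAR1L and 315 for FANCF with GAS2 to 60584 for ATM with C11orf65.

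The levels of the repair genes were also read by the number of transcripts of a gene, since BRCA1, BLM, FANCM, CHEK1 and TP53BP1 had so few counts. The 11 repair genes with 1 RefSeq messenger RNA had a median control level of 108 CPM, from 11.4 to 330.4, and the 12 with 2 or 3 had a median of 18.2. The 20 with 4 or more had a median of 2.82 CPM, and 7 of them were under 1 CPM, as against none of the first class. Over all genes of the table the medians of these classes were 2.20, 1.91 and 1.24 CPM, and 46.6%, 43.1% and 47.2% of genes were under 1 CPM, so that share did not grow with the number of transcripts. Reads shared between transcripts may be missing from the counts, and whether they are was not tested. Per kilobase of the longest coding transcript, control levels ran from 0.00576 CPM in FANCM and 0.0198 CPM in BRCA1 to 54.6 CPM in TOPBP1 and 140.5 CPM in MUS81.

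**Figure D3:**
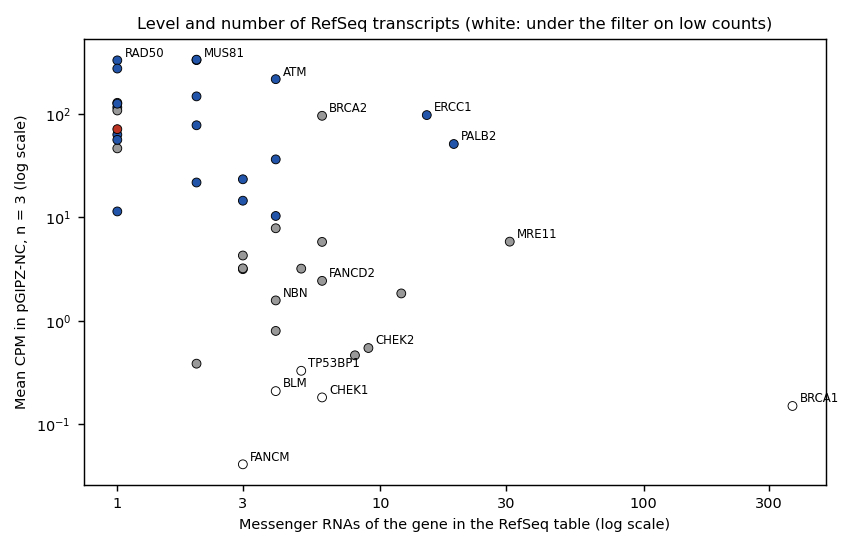
Mean control level in CPM (y axis, log scale, n = 3) of the 43 repair genes against the number of messenger RNAs of the gene in the RefSeq table (x axis, log scale); blue marks lower, red higher, grey tested but not passed and white not tested for low counts. The 5 white points, BRCA1 with 368 transcripts among them, all have at least 3 transcripts and lie under 1 CPM.

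Transcripts of a gene were then compared with each other. There were 13 repair genes with at least 2 transcripts in the table, of which ERCC1, FANCD2, MRE11, RAD51D, RAD54B and RBBP8 could be tested for a change in the proportions. None passed edgeR's test of transcript usage at an adjusted or unadjusted p under 0.05, where 2.03% of 1628 tested genes passed the adjusted p. In ERCC1 the main transcript NM_202001.2 made up 91.8% ± 0.729 of the counts in the controls and 93.4% ± 0.318 in shUSP39 (SD, n = 3 each), and both transcripts were lower, NM_202001.2 with a log2 fold change of -0.69 and NM_001983.3 of -1.02. In FANCD2 the share of NM_033084.4 was 64.7% ± 4.76 in the controls and 47.2% ± 7.13 in shUSP39 (SD, n = 3 each), at 18 to 57 counts per library. The groups did not overlap, and edgeR's usage test gave an unadjusted p of 0.27. Of the 13 transcripts of the genes tested for usage, 6 had proportions without overlap, and the same count over all tested genes is not given here. In RAD51B the main transcript NM_002877.5, named after its value was seen, had a log2 fold change of -1.38 (edgeR adjusted p 0.0303 among all tested transcripts). It had 31, 34 and 32 counts in the controls and 14, 8 and 15 in shUSP39. RAD51B was not among the genes tested for usage, and its summed counts did not pass (edgeR adjusted p 0.0909). These values describe what the table counts and say nothing of introns or of spliced reads.

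USP39 acts in splicing, so the changes were set beside the number of exons. The 38 genes had a median of 15 exons in the longest coding transcript, against 9 over all tested genes. Among all tested genes the median log2 fold change was 0.08 in genes with 1 to 3 exons, 0.02 with 4 to 10, -0.02 with 11 to 20 and -0.07 with over 20. In the same classes the repair genes had medians of 0.24 (2 genes), -0.26 (8 genes), -0.19 (18 genes) and -0.27 (10 genes). Of the 10 repair genes with over 20 exons, 8 were lower, among them FANCA, ATM and ATR, where 26.0% of all 1339 genes of that class were lower. The 2 genes with the fewest exons, FANCF with 1 and XRCC2 with 3, both had a positive log2 fold change, and only XRCC2 passed. RAD51D with 10 exons, FANCC and RAD54B with 15, CHEK2 with 16, NBN with 18 and BRIP1 with 20 were positive too, and none passed. Across the 38 genes, which share libraries and so are not independent, exon number and log2 fold change had a Spearman's rho of -0.17. The part of exon number in the changes was not tested.

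**Figure D4:**
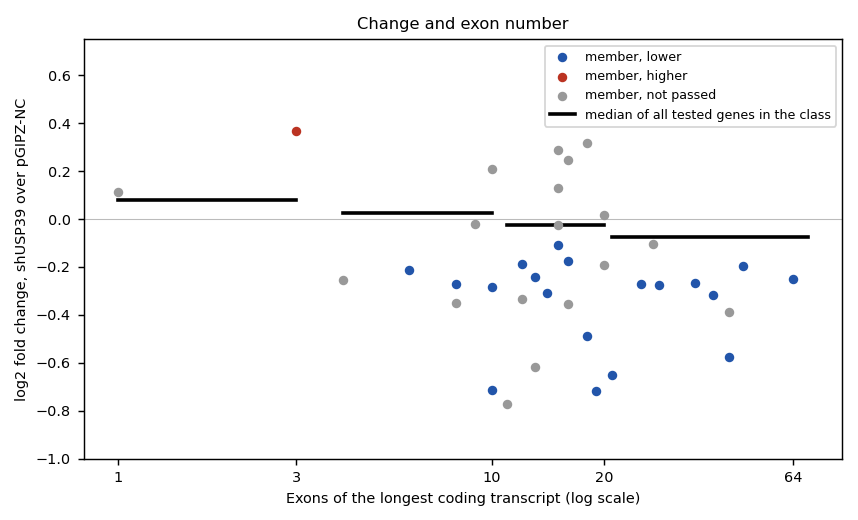
Log2 fold change (y axis, shUSP39 over pGIPZ-NC) against the number of exons of the longest coding transcript (x axis, log scale) for the 38 tested repair genes; blue marks lower, red higher and grey not passed, and black bars are the medians of all tested genes in 4 classes of exon number. The repair genes with over 20 exons all lie below 0, with a median of -0.27, and XRCC2 with 3 exons lies at 0.37.

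Other genes of the same pathways were called no more often than all tested genes. Of 51 further homologous recombination and Fanconi genes, 42 were tested, of which 5 (11.9%) were lower and 5 (11.9%) were higher, beside 17.5% and 16.1% of all tested genes, and the median log2 fold change was -0.03. The 3 largest called changes were SFR1, an accessory factor of recombination, at 0.85 (SE 0.30, edgeR adjusted p 0.0288), FAM175A, the scaffold of the BRCA1-A complex, at -0.76 (SE 0.26, edgeR adjusted p 0.0243), and GEN1, a resolvase of recombination intermediates, at 0.54 (SE 0.20, edgeR adjusted p 0.0435). All of these had under 6 CPM in every library. Among the tested genes with a mean of at least 10 CPM the list had 4 of 22 lower and 2 higher, beside 27.5% and 20.1%. The difference between this list and the 38 genes was not tested.

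The cell cycle genes that repair genes often follow were read beside them. Of 21 tested S phase genes, 11 were lower and 1 was higher, beside 17.5% and 16.1% of all tested genes. Their median log2 fold change was -0.17. At a mean of at least 10 CPM, 11 of 16 were lower and 1 was higher, beside 27.5% and 20.1%. The largest called changes were TYMS, which makes thymidylate, at -0.38 (SE 0.04), UHRF1, which maintains DNA methylation at forks, at -0.32 (SE 0.09) and PRIM1, a primase subunit, at -0.31 (SE 0.06). Of 17 tested G2 and M phase genes, 6 were lower and none was higher, beside the same 17.5% and 16.1%, with a median of -0.11. The largest falls were the kinetochore protein NDC80 at -0.46, topoisomerase TOP2A at -0.37 and the spindle motor KIF11 at -0.36. At a mean of at least 10 CPM, 6 of 15 were lower, beside 27.5%. The S phase count was 7 under upper-quartile scaling, without pGIPZ-NC replicate 2 and with shUSP39 replicate 1 alone. The part of cell cycle position in the levels of the repair genes was not tested.

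**Figure D5:**
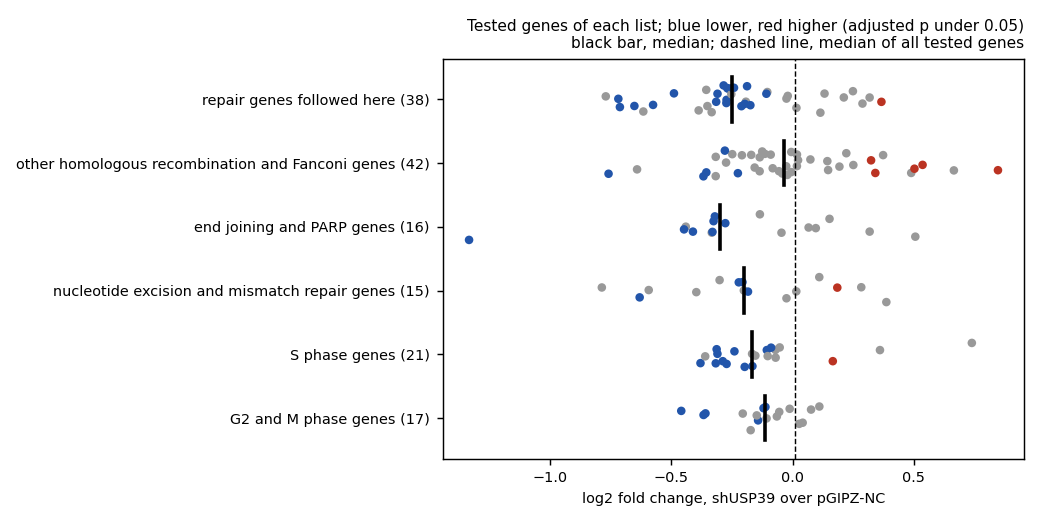
Log2 fold change (x axis, shUSP39 over pGIPZ-NC) of each tested gene in the 38 repair genes and 5 other lists, with the number tested after each name; blue marks lower, red higher and grey not passed, black bars are medians and the dashed line is the median of all tested genes. The 38 repair genes have a median of -0.25, the further recombination and Fanconi genes of -0.03 and the S phase genes of -0.17.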

How the data were processed

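RNA-seq of 6 A2780 libraries, 3 pGIPZ-NC and 3 shUSP39 by the labels, was analysed. The authors deposited raw read counts per RefSeq transcript, 1 column per library. Submitters' processing notes name HISAT2, Cufflinks and hg19, and the counter is not given in the sources used here. The authors' columns of group means, fold changes, p-values and q-values were not used.

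Counts were summed per gene symbol (21368 rows, 16571 symbols). Of the symbols, 95.0% had an entry in GENCODE release 44 mapped to GRCh37, the source of coordinates, exons and lengths. Genes were tested with edgeR 4.0.16 in R 4.3.3 (filterByExpr, TMM scaling, robust quasi-likelihood, group as the only term, all 6 libraries, Benjamini-Hochberg over 10695 genes), and a standard error is the absolute log2 fold change over the square root of F. CPM used library sizes scaled by TMM. Transcript usage was tested with diffSpliceDGE. On simulated data for this comparison, run on 10695 genes, 41, 63, 48 and 48 genes were changed by 1.3-, 1.5-, 2- and 3-fold. Of these, 51.2%, 79.4%, 87.5% and 100% were recovered, with 7 false calls among the rest. The changed genes were drawn only from genes above a limit on mean counts, and all genes were given the same spread. These rates therefore do not carry over to genes of few counts, such as FANCL and EME1. The biological coefficient of variation was 7.59%. No 2 libraries of a group agreed within sampling noise (chi-square per degree of freedom 4.75 to 7.81). Counting precision is set by the depth of 28294819 to 32939264 counts.

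The genes and all lists (further recombination and Fanconi, end joining and PARP, excision and mismatch repair, S phase, G2 and M phase, interferon, markers) were chosen with earlier results of these data known. Values in every library are given for genes past an adjusted p of 0.05 with an absolute log2 fold change over 0.3 and for BRCA1, BRCA2, PALB2, ATM, ATR, CHEK1, CHEK2, FANCD2 and FANCI; of other lists the 3 largest called changes are named, and other genes were named after their values were seen. Promoters came from RefSeq. Alternatives were DESeq2 1.42.0 size factors and Wald test, scaling by upper quartile or by library size only, limma-voom (limma 3.58.1), no filter on low counts, a filter of 10 counts in every library, a replicate block, each library left out, shUSP39 replicate 1 alone, the highest transcript, genes with 1 transcript in the table and, added after seeing the data, a 1.1-fold limit and genes of at least 10 CPM.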

Additional observations from a re-analysis of the deposited data

How the results depend on the processing

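The 1.1-fold limit and the limit of 10 CPM were added after seeing the data. The number of lower repair genes was 19 with limma-voom, the DESeq2 Wald test or size factors, the replicate block, no filter on low counts, or a filter of 10 counts in every library, 16 under upper-quartile scaling, library size only and among genes with 1 transcript in the table, 20 with the highest transcript, 13 with shUSP39 replicate 1 alone (spread from the controls only) and 12 with the 1.1-fold limit. XRCC2 was the higher gene in each. Across the 6 fits without 1 library the count ran from 16 to 18, and the count beyond 2-fold from 0 to 1 and beyond 1.5-fold from 3 to 5. The gene beyond 2-fold was RAD51B, which gave a count of 1 without shUSP39 replicate 2, with shUSP39 replicate 1 alone and with the highest transcript. The count beyond 1.5-fold was 1 among genes with 1 transcript, where RBBP8 and ERCC1 were not tested. The median log2 fold change of the 38 genes stayed between -0.26 and -0.19, while that of all tested genes moved to 0.05 under upper-quartile scaling and to 0.12 without a filter.

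Over the whole table upper-quartile scaling gave 1501 lower and 2077 higher genes, against 1872 and 1726 in the report. With shUSP39 replicate 1 alone 1225 were lower and 1019 higher, and with the 1.1-fold limit 1146 were lower. The S phase count was 7 under upper-quartile scaling, 7 with shUSP39 replicate 1 alone and 5 with the 1.1-fold limit, and ran from 7 to 9 across the fits without 1 library. The G2 and M phase count was 3 with shUSP39 replicate 1 alone and 3 with the 1.1-fold limit. The excision and mismatch repair count was 2 with the 1.1-fold limit and 2 among genes with 1 transcript, and the further recombination count was 3 there, with fewer genes tested.

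Of single genes, 585 values kept their direction and call, 26 lost the call and 4 gained it. The values that changed sign were all of genes that did not pass: SLX4 0.0185 and EME1 0.0241 under upper-quartile scaling, EME1 0.0045 by library size, MRE11 0.0032, FANCD2 0.1211 and EME1 0.1887 with shUSP39 replicate 1 alone, and RAD51D -0.0249 with the highest transcript. Across the fits without 1 library, sign changes lay in the ranges of BRCA2 (-0.2023 to 0.0145), BRIP1 (-0.0644 to 0.0718), NBN (-0.0005 to 0.5958), RAD52 (-0.5118 to 0.0), FANCC (-0.091 to 0.3049), FANCL (-0.5911 to 0.0172), SLX4 (-0.0632 to 0.0098) and EME1 (-0.4876 to 0.4162). Where no cause is named, it was not tested.

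Libraries of the same number did not deviate together (correlations of 0.09, 0.01 and 0.02), so the numbers were not taken as pairs. The replicate block gave 19 lower and 1 higher of the 38 genes, a median log2 fold change of -0.24 and 0 genes in the usage test, and 2077 lower and 1904 higher genes over the table. Low depth per gene limits NBN, FANCL, EME1, ATRIP and CHEK2 most.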

Other observations

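Other repair pathways were read in the same fit. Of 16 tested end joining and PARP genes, 7 were lower in shUSP39 and none was higher by edgeR's quasi-likelihood test. Over all tested genes 17.5% were lower and 16.1% were higher. At a mean of at least 10 CPM, 6 of 9 genes of the list were lower, beside 27.5%. The median log2 fold change of the list was -0.30. XRCC4, the scaffold of DNA ligase IV, had the largest called change at -1.33 (SE 0.51, adjusted p 0.0468), at under 1.2 CPM in every library. XRCC1, the scaffold of single-strand break repair, fell from 53.2 ± 2.81 to 39.0 ± 1.88 CPM (SD, n = 3 each), which is -0.45 on the log2 scale (SE 0.07, edgeR adjusted p 1.1e-05). PARP1, the target of PARP inhibitors, had 1054, 1053 and 1072 CPM in the controls and 812, 778 and 801 CPM in shUSP39, which is -0.41 on the log2 scale (SE 0.03, edgeR adjusted p 2.6e-11). POLQ, the polymerase of microhomology end joining, had -0.33, and XRCC5 and PRKDC, which bind broken ends for direct ligation, had -0.33 and -0.32, and all 3 passed. These genes were named after their values were seen, apart from XRCC4, XRCC1 and PARP1.

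Of 15 tested nucleotide excision and mismatch repair genes, 4 (26.7%) were lower and 1 (6.67%) was higher, beside 17.5% and 16.1% of all tested genes. Their median log2 fold change was -0.20. At a mean of at least 10 CPM, 4 of 8 were lower and 1 was higher, beside 27.5% and 20.1%. MSH6, which recognises mismatches, had 19.1, 15.3 and 16.7 CPM in the controls and 11.7, 11.1 and 10.1 CPM in shUSP39, a log2 fold change of -0.63 (SE 0.12, edgeR adjusted p 9.2e-05). MSH3, which recognises small loops, had -0.22 (SE 0.06), and ERCC2, a helicase of excision repair, had -0.21 (SE 0.04).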
